A study of Arabidopsis thaliana with 7 samples.

Results

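TCL1 (TRICHOMELESS1) and 9 other genes of trichome patterning were followed in seedlings of the glk1 glk2 double mutant, which carries lesions in both genes for the GOLDEN2-LIKE transcription factors of chloroplast development. The members were chosen by gene identifier, 10 of the 27655 genes in the deposited expression table: TCL1, TCL2, TRY, CPC, ETC1, ETC2, ETC3, GL1, GL2 and TTG1. The list joins TCL1 with its relatives and partners, and was drawn up with the TPM values of this same comparison known. The values below therefore describe the members, and no test is read for them. RNA had been sequenced from 4 libraries of glk1 glk2 double mutants and 3 libraries of wild type (WT), all in the Col-0 background. Every seedling was 12 days old, had grown on 1/2 strength MS medium at 16 °C in long days, and was taken at ZT4, 4 h into the light. The labels name no mutant alleles, and nothing says that replicates were separate plantings, so a p-value here reflects variation among libraries that could be technical only.

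Trichomes are single-celled hairs of the leaf epidermis. In the textbook scheme an R2R3 MYB protein (GL1), a bHLH protein (GL3 or EGL3) and the WD40-repeat protein TTG1 form a complex that switches on GL2, a homeodomain regulator of hair cell fate. Small single-repeat R3 MYB proteins, which lack an activation domain, compete with GL1 for the bHLH partner and so limit hair formation. TCL1, TCL2, TRY, CPC, ETC1, ETC2 and ETC3 are these inhibitors, and TCL1 is also known to repress GL1 directly. In the root, the same families decide between hair and non-hair cells.

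Values are TPM, the share of a transcript among 1000000 in its library, corrected for transcript length. Both targeted transcripts were low in the mutant: GLK1 (AT2G20570) averaged 51.6 ± 2.93 TPM in glk1 glk2 (SD, n = 4) and 191 ± 10.4 TPM in WT (SD, n = 3), and GLK2 (AT5G44190) averaged 50.6 ± 3.49 TPM in glk1 glk2 and 158 ± 2.85 TPM in WT. The deposited WT replicate 1 values were read in alphabetical order of the gene identifiers, since part of them did not match the rows of the file, which alters 1 member, GL1. The median of the 19127 tested genes lay 0.33 higher in glk1 glk2 on the log2(TPM + 1) scale. Each difference is therefore given also after TMM scaling (division by trimmed mean of M values factors), which moved that median to 0.011. A gene that is not a member is said to have risen or fallen where it had a Benjamini-Hochberg adjusted p under 0.05 in limma, in the same direction in TPM and after TMM scaling. As a tissue check, the shoot transcript RBCS1A, the root transcript PYK10 and the transcript of SCR were detected in every library. PYK10 had 2419.27, 1737.81, 1713.37 and 2887.15 TPM in glk1 glk2 replicates 1 to 4, against 1893.73, 2044.42 and 1630.76 TPM in WT replicates 1 to 3. Whether root content differed among the libraries was not tested. The floral genes AP1 and AG stayed at or under 0.21 TPM. The other shoot transcript of the check, the antenna gene LHCB1.3, had 6667.1 to 7434.81 TPM in glk1 glk2 and 29671.96 to 30197.06 TPM in WT, and fell with both scalings.

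TCL1, TCL2 and ETC2 lie in a row on the minus strand of chromosome 2, within 9394 bases in the RefSeq annotation of TAIR10.1, with AT2G30430 between TCL2 and TCL1. TCL1 is AT2G30432 (chr2:12968565-12970240), TCL2 is AT2G30424 (chr2:12962984-12965723) and ETC2 is AT2G30420 (chr2:12960847-12962162). Their second coding exons are the same length, 88 bases, and are shown because reads from such close copies could be assigned to the wrong gene. Each is written 5′ to 3′ in the sense of the transcript. Capitals in TCL2 and ETC2 mark bases that differ from TCL1, and capitals in TCL1 mark bases at which either of the others differs:
TCL1 (chr2:12969766-12969853): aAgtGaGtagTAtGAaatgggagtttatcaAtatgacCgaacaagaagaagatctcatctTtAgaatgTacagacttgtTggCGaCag
TCL2 (chr2:12965198-12965285): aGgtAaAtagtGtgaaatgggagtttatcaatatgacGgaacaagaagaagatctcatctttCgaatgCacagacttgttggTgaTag
ETC2 (chr2:12961640-12961727): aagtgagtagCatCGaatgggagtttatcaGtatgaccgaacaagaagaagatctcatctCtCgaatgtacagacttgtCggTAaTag
TCL2 matched TCL1 at 79 of 88 bases and ETC2 matched it at 78. TRY, on chromosome 5, also matched at 79, CPC at 69, ETC3 at 64 and ETC1 at 57 (for ETC3 and ETC1, in the annotated variant whose exon 2 has 88 bases). The longest run shared without a mismatch was 25 bases between the TCL1 and TCL2 transcripts and 29 bases between TCL1 and ETC2. All 584 of the 50-base stretches of the TCL1 transcript were absent as exact matches from every other annotated gene, and the same held for the stretches of the other members except GL2, of which 95.35% were its own, so the level of GL2 is less certain. ETC1 touches AT1G01390 at its end, without a shared 50-base stretch. Only exact matches to annotated transcripts were searched. Stretches that differ at a few bases, as the exons above hold, were not counted, so wrongly assigned reads were not tested for. How the authors treated reads that fit several genes is not given in the sources used here.

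TCL1 had 7.90, 8.71, 10.62 and 7.41 TPM in the glk1 glk2 libraries, against 1.80, 1.18 and 1.85 TPM in the WT libraries. Every mutant library lay above every WT library, on both scales. The means were 8.66 ± 1.41 TPM in glk1 glk2 (SD, n = 4) and 1.61 ± 0.373 TPM in WT (SD, n = 3), a ratio of 5.38. The log2 fold change of TPM + 1 was 1.89 ± 0.14 (SE), beside the median of 0.33 for all genes, and 1.62 ± 0.14 after TMM scaling, beside 0.011. The added 1 shrinks the change of a transcript this low, and with a pseudocount of 0.1 the log2 fold change was 2.37. TCL1 had at least 1 TPM in all 7 libraries, so it passed the filter on low values in both genotypes. In bulk seedlings, more cells that make a transcript and more transcript per cell cannot be told apart.

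**Figure D1:**
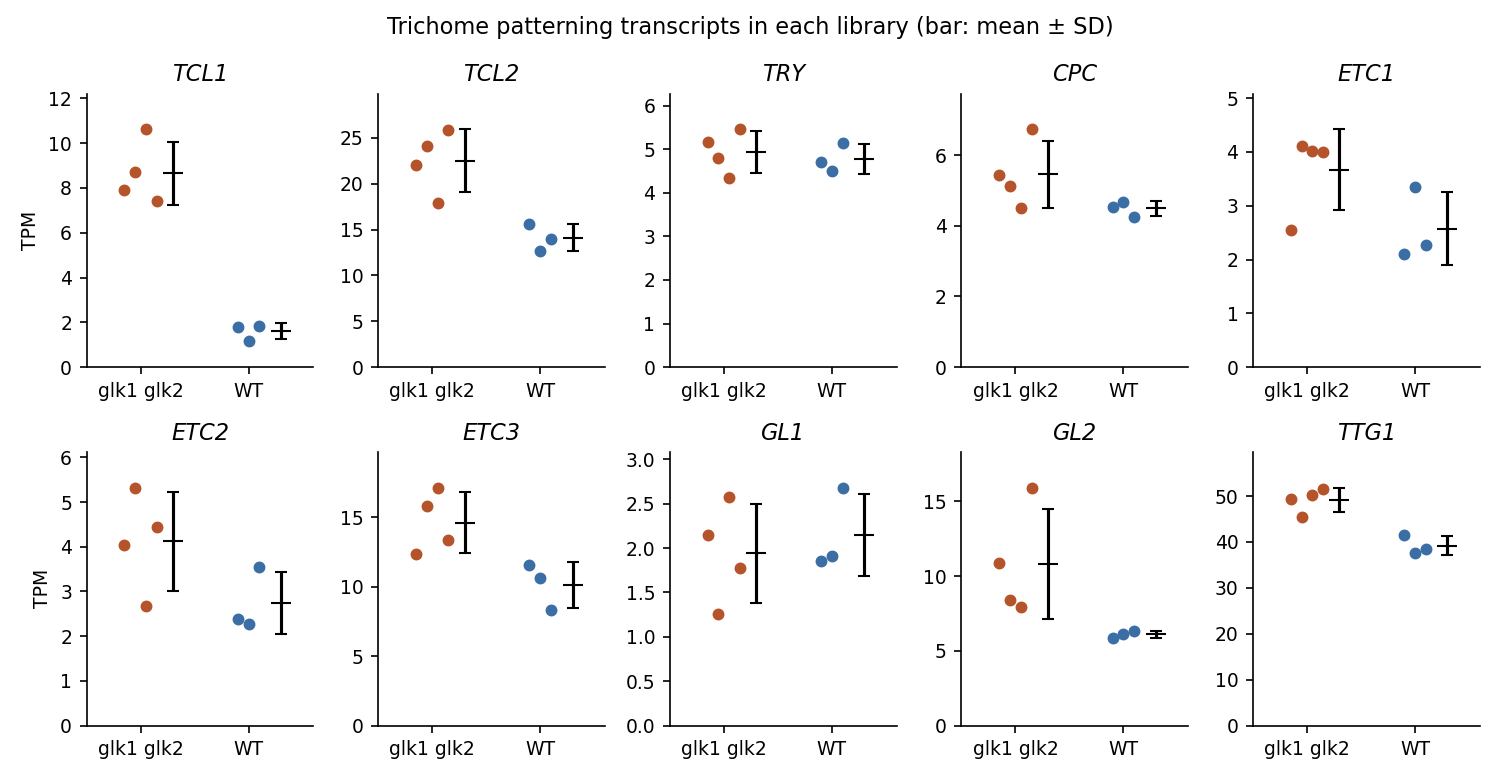
TPM (vertical axis, from 0) of the 10 trichome patterning genes in the 4 glk1 glk2 libraries (left) and the 3 WT libraries (right), 1 point per library, with bars for the mean ± SD. The ratio of the means is largest for TCL1 (5.38), with 7.41 to 10.62 TPM in glk1 glk2 and 1.18 to 1.85 TPM in WT.

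TCL2, the nearest relative of TCL1 on the chromosome and likewise an inhibitor of hair formation, had 22.01, 24.12, 17.87 and 25.88 TPM in glk1 glk2, against 15.66, 12.71 and 13.95 TPM in WT. The groups did not overlap in TPM but did after TMM scaling, and the log2 difference was 0.63 ± 0.12 (SE) in TPM and 0.29 ± 0.14 when TMM-scaled. ETC2, the third gene of the row, which acts on leaf hairs, had 2.68 to 5.32 TPM in glk1 glk2 and 2.28 to 3.54 TPM in WT, with overlap on both scales. TCL1 transcript was 0.4 ± 0.134 times as abundant as TCL2 in glk1 glk2 (SD, n = 4) and 0.114 ± 0.02 times as abundant in WT (SD, n = 3). This ratio is free of library scaling, and ranged from 0.286 to 0.594 in the mutant libraries and from 0.093 to 0.133 in the WT libraries.

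For the 4 inhibitors outside the row, the log2 fold changes were all smaller than that of TCL1. TRY, which keeps neighbouring leaf hairs apart, had 5.17, 4.79, 4.33 and 5.46 TPM in glk1 glk2, against 4.70, 4.49 and 5.15 TPM in WT. These values overlapped in TPM, and after TMM scaling all 4 mutant values (3.73 to 4.85) lay below the WT values (5.12 to 6.04), so the direction flipped with the scaling (log2 0.04 ± 0.10 in TPM and -0.26 ± 0.10 scaled, SE). CPC, known for promoting root hairs, had 4.50 to 6.73 TPM in glk1 glk2 and 4.26 to 4.67 TPM in WT, and its difference also changed sign, at 0.22 ± 0.12 in TPM and -0.08 ± 0.12 scaled (log2, SE). ETC3, which is named CPL3 in RefSeq, had 12.37, 15.79, 17.11 and 13.32 TPM in glk1 glk2, against 11.54, 10.60 and 8.30 TPM in WT. Its groups were apart in TPM (log2 fold change 0.49 ± 0.14, SE) and overlapped after TMM scaling (0.16 ± 0.13). ETC1 had 2.54, 4.11, 4.02 and 3.99 TPM in glk1 glk2, against 2.10, 3.35 and 2.27 TPM in WT, and its groups overlapped on both scales.

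**Figure D2:**
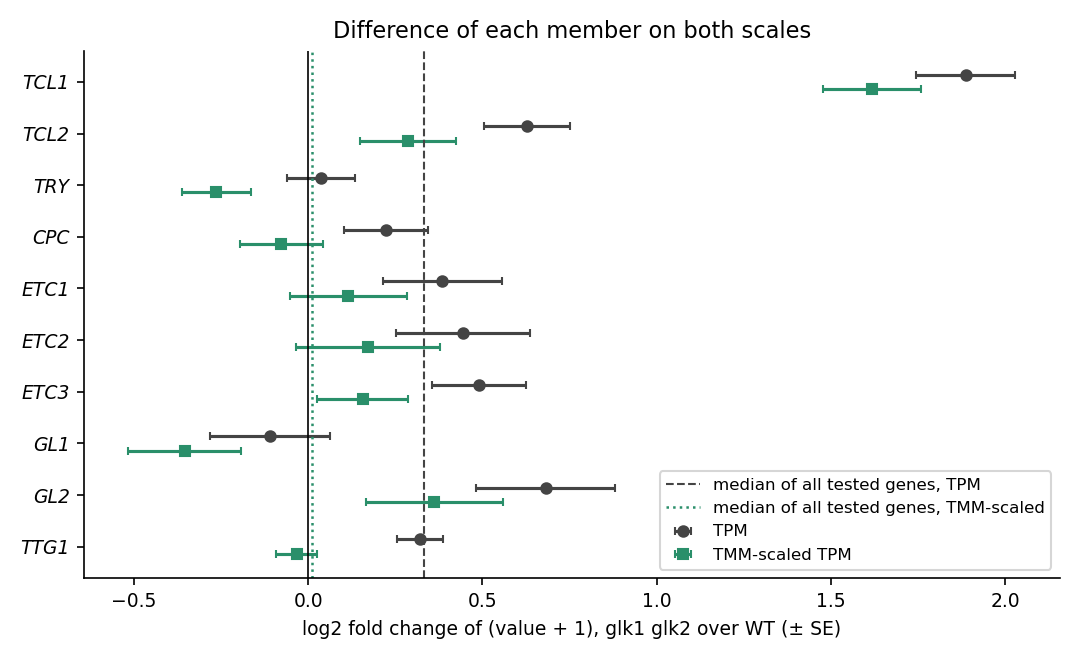
Log2 fold change of glk1 glk2 over WT (horizontal axis, value + 1, ± SE) for each member in TPM (circles) and after TMM scaling (squares), with the median of all tested genes on each scale (dashed and dotted lines). TCL1 lies at 1.89 and 1.62, and the other 9 members lie between -0.35 and 0.68.

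The 7 inhibitors together reached 64.0 ± 4.28 TPM in glk1 glk2 (SD, n = 4) and 40.4 ± 1.97 TPM in WT (SD, n = 3). Without TCL1 the sum was 55.3 ± 4.93 TPM in glk1 glk2 and 38.8 ± 1.84 TPM in WT. After TMM scaling the sum was 57.5 ± 5.39 in glk1 glk2 and 46.7 ± 2.23 in WT, and without TCL1 it was 49.8 ± 5.74 in glk1 glk2 and 44.8 ± 1.97 in WT. The scaled sums without TCL1 overlapped, from 43.51 to 55.85 in the mutant libraries and from 43.45 to 47.07 in the WT libraries. TCL1 supplied 11.0% to 17.4% of the inhibitor transcripts in the mutant libraries and 3.0% to 4.7% in the WT libraries, while TCL2 and ETC3 were the most abundant inhibitors in every library.

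**Figure D3:**
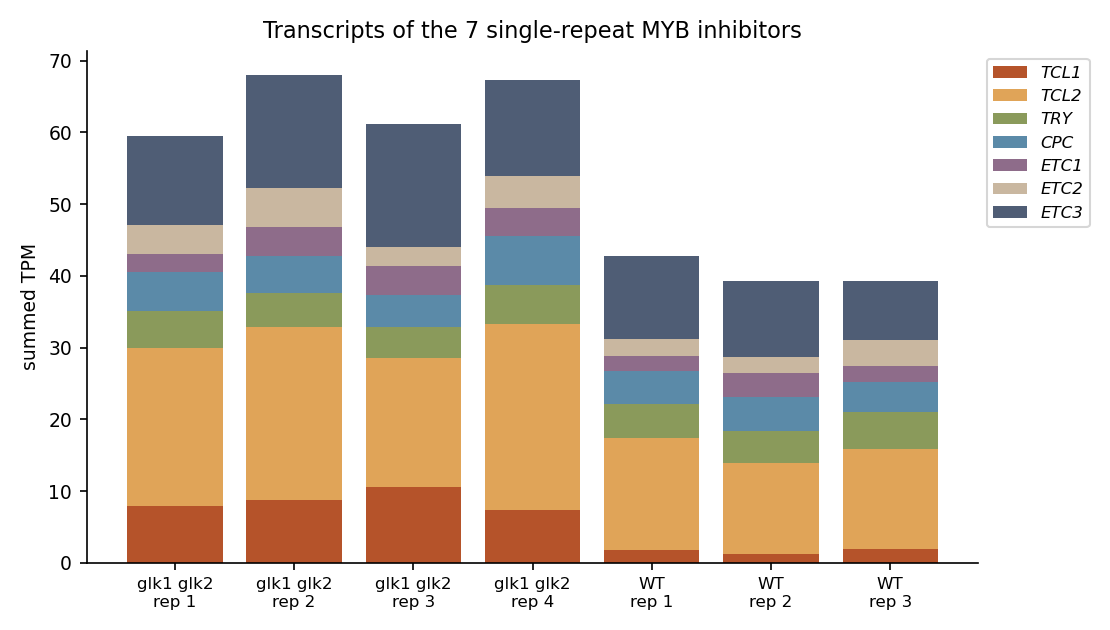
Stacked bars of the TPM of the 7 single-repeat MYB inhibitors in each library (vertical axis, summed TPM), glk1 glk2 replicates 1 to 4 on the left and WT replicates 1 to 3 on the right. The TCL1 segment at the base is 7.41 to 10.62 TPM in the mutant bars and 1.18 to 1.85 TPM in the WT bars.

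GL1 (AT3G27920), the MYB activator that TCL1 represses, had 2.15, 1.26, 2.58 and 1.78 TPM in glk1 glk2, against 1.86, 1.91 and 2.68 TPM in WT. The groups overlapped, with a log2 difference of -0.11 ± 0.17 (SE) in TPM and -0.35 ± 0.16 when TMM-scaled. In the row order of the file, the WT replicate 1 value would be 9.86 TPM in place of 1.86, with a log2 fold change of -0.75. Without glk1 glk2 replicate 2 or WT replicate 3 the log2 TPM difference changed sign, to 0.01 or 0.0082. TTG1 (AT5G24520), the WD40 scaffold, was the most abundant member, at 49.39, 45.51, 50.14 and 51.63 TPM in glk1 glk2, against 41.58, 37.50 and 38.45 TPM in WT. Its TPM difference of 0.32 ± 0.07 (log2, SE) was close to the median of all genes, and it was -0.03 ± 0.06 after TMM scaling.

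GL2 (AT1G79840), the homeodomain output of the activator complex, had 10.88, 8.38, 7.93 and 15.92 TPM in glk1 glk2, against 5.86, 6.14 and 6.31 TPM in WT. The mutant values spread widely, with a coefficient of variation of 34.0% in glk1 glk2 and 3.72% in WT, and the groups overlapped after TMM scaling (log2 0.68 ± 0.20 in TPM and 0.36 ± 0.20 scaled, SE). The library with the highest GL2 value, glk1 glk2 replicate 4, also held the most root hair transcripts, with 704 TPM summed over 13 genes against 255 to 398 TPM in the other mutant libraries and 137 to 281 TPM in the WT libraries. Root hair sums were 281, 226 and 137 TPM in WT replicates 1 to 3, where GL2 had 5.86, 6.14 and 6.31 TPM. That GL2 range is too narrow to read an order from. All 13 root hair genes were above 1 TPM in some library, and their part in the GL2 value was not tested.

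Ordered by mean TPM, TCL1 ranked 5 of 10 in glk1 glk2 and last in WT. In glk1 glk2 the order was TTG1 (49.2 TPM), TCL2 (22.5), ETC3 (14.6), GL2 (10.8), TCL1 (8.66), CPC (5.45), TRY (4.94), ETC2 (4.12), ETC1 (3.67) and GL1 (1.94). The ranges of ETC3 and GL2, of GL2 and TCL1, and of each neighbouring pair from CPC down to GL1 overlapped there. In WT the order was TTG1 (39.2 TPM), TCL2 (14.1), ETC3 (10.1), GL2 (6.10), TRY (4.78), CPC (4.49), ETC2 (2.74), ETC1 (2.57), GL1 (2.15) and TCL1 (1.61). There the ranges overlapped for TRY and CPC, for ETC2 and ETC1, and for ETC1 and GL1. All 10 members passed the filter of at least 1 TPM in 3 libraries. The rule for calls was set for genes that are not members, so its counts here are descriptive and no test is read. It marked 1 of the 10 members higher (TCL1) and 0 lower, where 3.20% of all tested genes were called higher and 2.53% lower. With each scaling by itself, its cut-off marked 5 of the 10 higher in TPM (63.0% of all genes) and 0 lower (2.56%). After TMM scaling it marked 1 higher (3.20%) and 0 lower (4.96%). In TPM alone 5 of the 10 lay above WT without overlap, where 62.8% of all genes did, and after TMM scaling 1 lay above and 1 below, where 12.1% and 11.7% of all genes did. The median log2 fold change of the 10 was 0.41 in TPM and 0.14 after TMM scaling, beside 0.33 and 0.011 for all tested genes. These counts come from the comparison known when the members were chosen and describe the members only.

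The genes beside TCL1 were compared to see whether the difference extends along the chromosome. Of the 5 genes on each side, 2 are members and AT2G30430, the closest, was listed at 0 TPM in every library. None of the other 7 was called with both scalings in limma. In TPM alone 5 were called higher, where 63.0% of all tested genes were, and 0 when TMM-scaled (3.20%). Without adjustment, the limma p was under 0.05 for 5 higher in TPM and for 1 lower when scaled. TPP, a thylakoid processing peptidase gene next to TCL1, had 114.88, 117.95, 131.07 and 110.62 TPM in glk1 glk2, against 90.57, 84.01 and 77.13 TPM in WT. Its log2 fold change was 0.49 ± 0.08 (SE) in TPM (adjusted p = 0.00108) and 0.14 ± 0.07 after TMM scaling (adjusted p = 0.298). The tubulin-folding cofactor gene KIS, whose mutants have altered trichome branching, averaged 49.5 ± 2.05 TPM in glk1 glk2 and 43.4 ± 2.92 TPM in WT (limma, log2 0.19, adjusted p = 0.0321 in TPM; log2 -0.17, adjusted p = 0.142 scaled), so its direction flipped with the scaling. C4H, for cinnamate 4-hydroxylase, averaged 200 ± 12.3 TPM in glk1 glk2 and 142 ± 6.86 TPM in WT (adjusted p = 0.000645 in TPM and 0.231 after scaling). HSI2, also called VAL1, OFP2, AT2G30460 and AT2G30480 had log2 fold changes of -0.12 to 0.07 after TMM scaling.

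**Figure D4:**
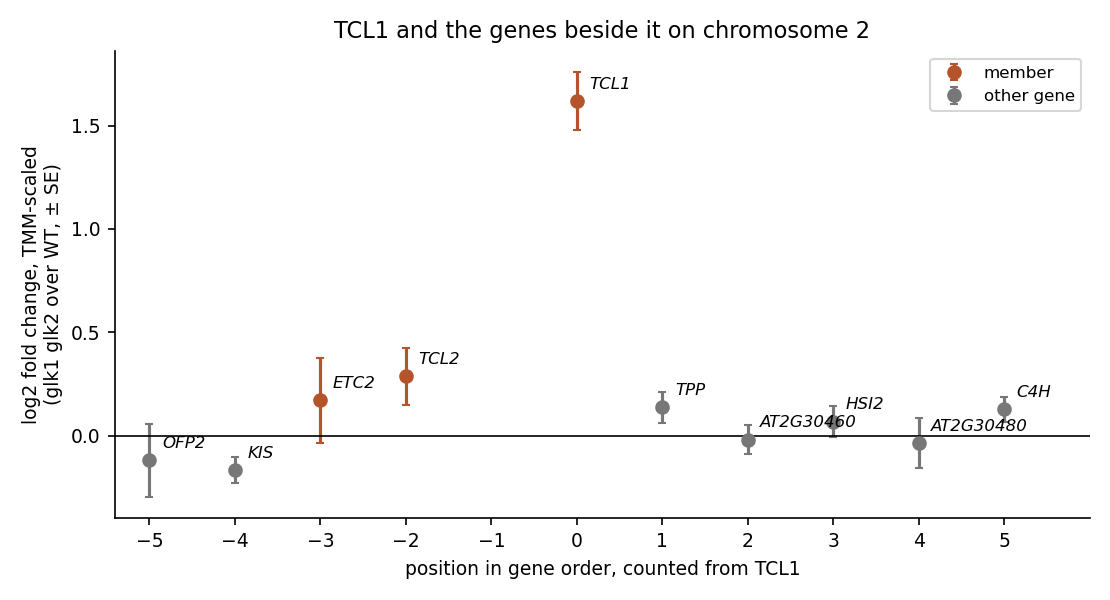
Log2 fold change after TMM scaling (vertical axis, glk1 glk2 over WT, ± SE) of TCL1 and the genes on either side of it in annotation order (horizontal axis), with members in orange and other genes in grey. TCL1 is at 1.62, the other plotted genes lie between -0.17 and 0.29, and position -1 is empty because AT2G30430 was at 0 TPM.

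Of 57 further trichome genes, 47 passed the filter, and 3 of these rose and 0 fell, which is 6.38% against 3.20% of all tested genes. These genes and the lists below were chosen with earlier results of these data known. Their counts, shares and adjusted p-values are therefore descriptive, and a higher rate of calls among trichome genes was not tested. In TPM alone 32 of the 47 were called higher, where 63.0% of all tested genes were, and 0 lower (2.56%). Of these 3, the largest change was in GIS (AT3G58070, chromosome 3, TAIR10.1 positions 21506572 to 21507739), a C2H2 zinc-finger gene that promotes hair initiation. GIS had 12.27, 10.96, 11.06 and 14.66 TPM in glk1 glk2, against 3.56, 3.05 and 4.06 TPM in WT. The groups did not overlap, and GIS rose by 1.54 ± 0.12 (log2, SE, limma adjusted p = 9.29e-05) in TPM and by 1.23 ± 0.12 (adjusted p = 0.000438) after TMM scaling. GIS lies in the rows affected by the order of WT replicate 1, where the deposited row holds 49.54 TPM. With that value its log2 fold change was 0.38 (adjusted p = 0.972, the larger of both scalings), and without that library it was 1.54 (adjusted p = 0.00392).

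ZFP8, a C2H2 zinc-finger relative of GIS with a similar role, had 57.78, 59.36, 58.91 and 60.30 TPM in glk1 glk2, against 34.27, 36.95 and 39.66 TPM in WT. Its log2 fold change was 0.66 ± 0.06 (SE, limma adjusted p = 0.000211) in TPM and 0.31 ± 0.07 (adjusted p = 0.0293) after TMM scaling. The call depended on single libraries, with the larger adjusted p of both scalings at 0.118 without WT replicate 1, 0.129 without WT replicate 2, and 0.0702, 0.0564 and 0.0603 without glk1 glk2 replicate 1, 2 or 4. With the replicate block the adjusted p was 0.119. ZFP8 also lies in the displaced rows, with 8.07 TPM for WT replicate 1 as deposited, which gave a log2 fold change of 1.32 (adjusted p = 0.391), and with the displaced values missing the log2 fold change was 0.61 (adjusted p = 0.0822). GIS2, the third gene of this group, lay under the filter, at 0.30 to 0.50 TPM in glk1 glk2 and 0 to 0.17 TPM in WT, and is named after its values were seen. The other 11 tested upstream regulators were not called with both scalings, among them SPL9, which is known to activate TCL1 and TRY, with 9.0 ± 0.797 TPM in glk1 glk2 and 5.78 ± 0.907 TPM in WT (adjusted p = 0.0028 in TPM and 0.183 after TMM scaling). SPL9 was also named after its values were seen.

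Of 24 genes for hair growth and shape, TBR rose and 0 fell. TBR, which is needed for the cellulose-rich wall of hairs, had 68.76, 67.68, 67.88 and 73.75 TPM in glk1 glk2, against 43.77, 42.86 and 42.78 TPM in WT. Its log2 fold change was 0.68 ± 0.06 (SE, limma adjusted p = 0.000108) in TPM and 0.32 ± 0.06 (adjusted p = 0.0114) after TMM scaling. The call was lost without WT replicate 2 (adjusted p = 0.0752) and with the replicate block (0.0871). The actin regulator gene NAP1 was called higher without glk1 glk2 replicate 2 only (log2 fold change 0.65, adjusted p = 0.0493). The median of the list was 0.36 in TPM (log2 fold change) and 0.03 when TMM-scaled.

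Of 10 tested partners, MYB, bHLH and WRKY regulators that share the complex or its targets, 0 were called with both scalings in limma. In TPM alone 6 were called higher, where 63.0% of all tested genes were, and 0 when TMM-scaled (3.20%). Without adjustment, the limma p was under 0.05 for 3 higher and 1 lower when scaled. MYBL2, a single-repeat MYB repressor of anthocyanin genes, had the smallest p in TPM, with 280 ± 26.0 TPM in glk1 glk2 and 202 ± 13.0 TPM in WT (adjusted p = 0.00187 in TPM and 0.572 after scaling). The bHLH genes of the hair complex, GL3 and EGL3, averaged 2.01 ± 0.328 and 4.05 ± 0.635 TPM in glk1 glk2, against 1.12 ± 0.176 and 3.09 ± 0.142 TPM in WT. PAP2, a MYB activator of anthocyanin genes, had 6.16, 8.73, 30.64 and 3.05 TPM in glk1 glk2, against 2.18, 1.36 and 1.67 TPM in WT, and was called higher without glk1 glk2 replicate 4 (adjusted p = 0.0418) and with the replicate block (0.048). PAP1 was called lower without glk1 glk2 replicate 3 (log2 fold change -0.79, adjusted p = 0.00463), the library in which it was highest at 10.79 TPM. GL3, EGL3, PAP1, PAP2 and NAP1 were named after their values were seen.

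**Figure D5:**
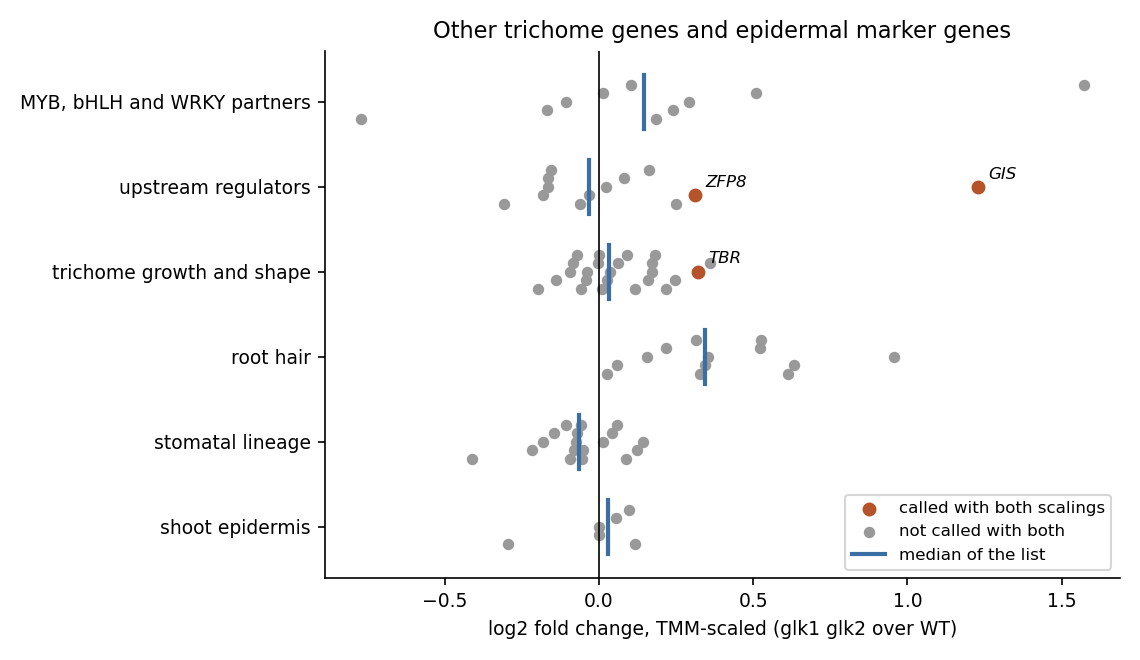
Log2 fold change after TMM scaling (horizontal axis, glk1 glk2 over WT) of each tested gene of 6 lists, 1 point per gene, with the list median as a vertical bar. The 3 genes called with both scalings, GIS at 1.23, TBR at 0.32 and ZFP8 at 0.31, are in orange.

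Markers of other epidermal cells were measured alongside. None of 18 stomatal lineage genes, 13 root hair genes or 6 shoot epidermis genes was called with both scalings in limma. In TPM alone 17 of these 37 were called higher, where 63.0% of all tested genes were. After TMM scaling 1, the stomatal gene POLAR, was called lower (4.96% of all tested genes). At an unadjusted limma p under 0.05 after scaling, 2 were higher and 2 lower. The median log2 fold change after TMM scaling was -0.06 for the stomatal list, 0.34 for the root hair list and 0.03 for the shoot epidermis list. Summed over the list, stomatal genes held 245 to 332 TPM in glk1 glk2 and 200 to 232 TPM in WT. Shoot epidermis genes held 2300 to 2410 TPM in glk1 glk2 and 1800 to 1980 TPM in WT. These sums are not TMM-scaled, and in TPM 62.8% of all tested genes lay above WT without overlap. After TMM scaling 0 genes of these 2 lists lay above WT without overlap (12.1% of all tested genes). On that scale 1 stomatal gene and 0 shoot epidermis genes lay below (11.7%). Among the 13 root hair genes, 1 lay above WT without overlap and 0 below on that scale. All 13 had a log2 fold change above 0 there, as did 10013 of the 19127 tested genes. The smallest p in TPM belonged to MYB88 among stomatal genes (adjusted p = 0.005 in TPM and 0.399 after scaling), to SCM among root hair genes (0.00443 and 0.235) and to FDH among shoot epidermis genes (0.00104 and 0.457). The part of these cell types in the TCL1 and GIS values was not tested.

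The genes whose values followed TCL1 most closely over the 7 libraries were AT2G40460, RAD52-2, RBP-DR1, NUDT12 and AT5G43740, out of 15118 tested genes that averaged at least 5 TPM in at least 1 genotype. Pearson's r with TCL1 in log2(TPM + 1) was 0.996 to 0.998. These genes share the 2-group design and the shift of TPM, and their ratios of glk1 glk2 over WT were 1.27 to 1.58, against 5.38 for TCL1. RAD52-2 (AT5G47870), a DNA repair gene, had the ratio of 1.58, and averaged 59.3 ± 2.46 TPM in glk1 glk2 and 37.5 ± 1.90 TPM in WT. These genes were picked for following TCL1, whose values separate the genotypes, so no test is read for them.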

How the data were processed

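The authors deposited 1 table of TPM values, with 27655 genes and 7 library columns. TopHat2, Cufflinks and TAIR10 are named without versions, per the submitters' processing notes. Each column sums to 1000000, so read depth is unknown and no counting interval is given. In 5606 rows the identifiers are out of alphabetical order. There, log2(TPM + 1) of WT replicate 1 had Pearson's r = 0.055 across genes against the average of the remaining 6 libraries when read row by row, and r = 0.995 when its values were assigned alphabetically, as used here.

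Genes with at least 1 TPM in at least 3 libraries (19127) were compared as log2(TPM + 1) with limma 3.58.1 in R 4.3.3 (mean-variance trend, two-sided, Benjamini-Hochberg over all tested genes), in TPM and after TMM scaling (30% trim of ratios, 5% trim of levels, unweighted). The fits were tested on simulated data. Alternatives were a pseudocount of 0.1, no filter, a mean of at least 5 TPM, a replicate block, WT replicate 1 as deposited or with its displaced values missing, and each library left out. The members and gene lists were chosen with earlier results of these data known. Genes named are the members, GLK1 and GLK2, up to 6 called genes of each list or else the smallest p in TPM, the 5 genes on each side of TCL1, and the 5 genes most correlated with it. Sequences and positions come from RefSeq's TAIR10.1; the deposited table holds none.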

Additional observations from a re-analysis of the deposited data

Results flagged for a closer look

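In the 4 glk1 glk2 libraries, 125 genes were examined for a single library far from the other 3, relative to the range of the group. By chance about 1 in 20 of the genes examined would be flagged. Here 6 of the 125 were, which is near that share, so the values below are listed only as a description. Among the members, ETC1 had 2.54 TPM in glk1 glk2 replicate 1, below 3.99 to 4.11 TPM in the other mutant libraries. Among the trichome genes, NAP1 had 12.98 TPM in replicate 2, below 18.67 to 19.55 TPM elsewhere, and NTL8, a NAC gene under the filter, had 0.9 TPM in replicate 3, above 0.34 to 0.40 TPM. The receptor kinase genes ER and ERL2 of the stomatal list were highest in replicate 3, at 56.03 and 10.26 TPM, above 37.86 to 39.64 TPM for ER and 6.55 to 7.18 TPM for ERL2. AT2G30460, near TCL1, had 15.18 TPM in replicate 4, above 13.35 to 13.63 TPM.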

How the results depend on the processing

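The TCL1 log2 fold change of 1.89 was 1.62 with TMM scaling and 2.37 with a pseudocount of 0.1, and 1.76 to 1.96 when 1 library was left out. The 3 trichome genes called higher became 32 in TPM alone and 1 with WT replicate 1 as deposited, and 1 to 3 when 1 library was left out, with 0 to 1 called lower. Epidermal markers called higher were 17 in TPM alone and 1 (LRX1, named after its values were seen) with the replicate block, and 1 was called lower with TMM scaling. Neighbours of TCL1 called higher were 5 in TPM alone. Over all genes, 613 were called higher with both scalings, 12046 in TPM alone, 234 with the replicate block, 202 with WT replicate 1 as deposited, and 165 to 781 when 1 library was left out (165 without WT replicate 2, 197 without WT replicate 1, 328 without WT replicate 3 and 311 without glk1 glk2 replicate 1). Those called lower numbered 483, 948 with TMM scaling, and 356 to 572 when 1 library was left out. The cause of these shifts was not tested. Calls in TPM alone were added after seeing the data.

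Deviations of libraries with the same replicate number correlated at r = -0.096, 0.171 and 0.155 for numbers 1 to 3. Mutant replicates 2 and 3 each correlated best with the WT library of their number, but replicate 1 did so with WT replicate 3 (0.144). The highest value of all, 0.275, was between unlike numbers, mutant replicate 4 and WT replicate 1. The numbers were therefore not taken to pair the libraries. With the replicate block, fitted without glk1 glk2 replicate 4, the TCL1 log2 fold change was 1.95 and that of GIS was 1.45 (adjusted p = 0.00547). TPM keeps no depth, so no limit of detection can be given for low members such as GL1.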

Other observations

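In TPM, the mutant libraries differed among themselves in which epidermal genes were high. Their TMM factors were 1.11, 1.061, 1.161 and 1.125 for replicates 1 to 4, so TPM values in general lay highest in replicate 3. The share of all genes at their highest or lowest in each library was not counted. Whether the counts below are particular to these lists was therefore not tested. Replicate 3 had the highest TCL1 (10.62 TPM) and the lowest TCL2 (17.87 TPM) of the 4, and replicate 4 the lowest TCL1 (7.41 TPM) and the highest TCL2 (25.88 TPM). In replicate 3, 14 of 18 stomatal lineage genes were at their highest of the mutant libraries, together with PAP2 (30.64 TPM), PAP1 (10.79 TPM) and TT8 (11.65 TPM). In replicate 4, 10 of 13 root hair genes were at their highest, among them LRX1 (58.44 TPM) and PRP3 (343.82 TPM), as were GL2 (15.92 TPM) and MYB23 (13.94 TPM), a MYB relative of GL1. In WT, 12 of 13 root hair genes were lowest in replicate 3, while GL2 differed little among the WT libraries (5.86 to 6.31 TPM). WT replicate 3 had the smallest TMM factor, 0.8533 against 0.8694 and 0.8768 in WT replicates 1 and 2. These factors lay close together, while the root hair sums were 281, 226 and 137 TPM in WT replicates 1 to 3. The cause of that drop was not tested.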
